A study of Mus musculus with 4 samples.

Results

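Described here are 41 genes of skeletal muscle: the transcription factors that make a cell a muscle cell, the proteins of the sarcomere, and a small group of calcium, energy and synapse genes. They were picked by gene symbol as known muscle genes, and lower muscle markers in the foot library labelled positive were already known at the time. Of the 41, 40 had an entry of their own with an OK status in at least 1 library, among 33127 named gene units in all. Acta1, skeletal alpha-actin, was not analysed here, and Myh8 had no entry of its own in 1 library, where it was joined with Myh1. By role there were 6 myogenic regulators, 10 thin filament genes, 10 thick filament genes, 6 Z-disc and scaffold genes, 6 genes of calcium handling, energy and membrane, and 3 receptor subunits of the nerve-muscle synapse.

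Messenger RNA was sequenced from dermal cells of mouse embryos carrying Axin2-LacZ, a lacZ reporter of Axin2, which is a target gene of Wnt signalling. Cells were released from skin with collagenase and hyaluronidase and sorted by the reporter into a positive and a negative fraction, from ventral foot skin at E17.5 and from dorsal back skin at E14.5. The study asked whether Wnt signalling gives the dermis of each body site its own transcriptional state. Each of the 4 groups held 1 library, so no difference has a replicate check and none was tested; site and stage changed together and cannot be told apart. The sources used here do not give strain, litter or how many embryos were pooled per library.

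Skeletal muscle forms in steps. Pax3 and Pax7 mark the progenitors, Myf5 and MyoD commit them, and myogenin and Myf6 (MRF4) act as they differentiate. The regulators of the MyoD family bind the E-box sequence CANNTG and switch on contractile genes. In the sarcomere, myosin thick filaments with their essential and regulatory light chains pull on actin thin filaments, and troponin (subunits T, C and I) makes this depend on calcium. Slow fibres, fast fibres, heart and embryonic muscle use different members of each family. The panniculus carnosus, a sheet of striated muscle, lies directly under the dermis of mouse trunk skin.

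Levels are the authors' FPKM, fragments per kilobase of transcript relative to all mapped fragments, which corrects for length, and each is followed by the authors' lower and upper bound where that matters. They carry the error of counting and of assigning reads in 1 library and hold nothing on differences between embryos. Their width corresponds to about 2.90 M (positive) and 6.69 M (negative) fragments in the foot, and 18.4 M and 16.1 M in the back, so low genes were measured less well in the foot. Between 29.7% and 43.5% of all coding units were listed at exactly 0, so a 0 is given only as "listed at 0", with no fold against it. Calls and medians do take in such values, after a constant, 1 unless stated, is added to each FPKM. The log2 ratio printed for Myl4 in the foot does so too. All 11 dermal fibroblast markers reached 5 FPKM in every library, with summed levels between 3797 and 8029 FPKM. In the foot the Axin2 transcript went against the labels: the negative library had 12.9 FPKM (10.2 to 15.3) and the positive one 9.65 FPKM (7.10 to 12.5), with overlapping bounds. Its back levels were 4.49 FPKM (3.89 to 5.09) in the positive and 3.13 FPKM (2.63 to 3.64) in the negative fraction. Directions in the foot are therefore given for the libraries as labelled.

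Of the muscle genes only 6 reached 5 FPKM in any library: the troponin genes Tnnt1, Tnni1 and Tnni2 and the myosin light chain genes Myl1, Myl4 and Mylpf. The 250 bases before the start of 5 of them are shown, because they are the genes whose levels carry the results below and because the E-box is where the regulators of the MyoD family bind. They are RefSeq sequences on GRCm38.p6, 5′ to 3′ on the gene's strand, with every CANNTG in capitals. Tnni2 is named only.
Tnnt1 (chr7:4515976-4516225, minus strand): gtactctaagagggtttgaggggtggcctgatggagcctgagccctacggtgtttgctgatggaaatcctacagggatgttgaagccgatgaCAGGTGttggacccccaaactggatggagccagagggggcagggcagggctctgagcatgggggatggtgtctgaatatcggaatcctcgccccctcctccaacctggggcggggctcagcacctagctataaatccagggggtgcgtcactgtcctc
Tnni1, first of its starts (chr1:135799171-135799420, plus strand): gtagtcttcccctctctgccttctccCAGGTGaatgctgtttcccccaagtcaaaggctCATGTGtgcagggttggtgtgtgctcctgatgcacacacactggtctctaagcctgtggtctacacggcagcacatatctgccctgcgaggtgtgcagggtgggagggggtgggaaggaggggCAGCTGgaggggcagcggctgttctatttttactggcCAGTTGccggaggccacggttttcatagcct
Myl1 (chr1:66945057-66945306, minus strand): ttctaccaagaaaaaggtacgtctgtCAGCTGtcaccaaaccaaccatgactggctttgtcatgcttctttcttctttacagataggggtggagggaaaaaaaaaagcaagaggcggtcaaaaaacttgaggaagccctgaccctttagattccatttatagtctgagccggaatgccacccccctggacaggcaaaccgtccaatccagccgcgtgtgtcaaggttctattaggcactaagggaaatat
Myl4 (chr11:104550413-104550662, plus strand): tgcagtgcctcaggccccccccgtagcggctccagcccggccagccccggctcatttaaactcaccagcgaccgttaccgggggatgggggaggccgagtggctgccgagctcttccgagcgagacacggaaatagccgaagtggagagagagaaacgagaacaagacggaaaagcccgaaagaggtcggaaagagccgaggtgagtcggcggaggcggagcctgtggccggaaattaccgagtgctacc
Mylpf (chr7:127211358-127211607, plus strand): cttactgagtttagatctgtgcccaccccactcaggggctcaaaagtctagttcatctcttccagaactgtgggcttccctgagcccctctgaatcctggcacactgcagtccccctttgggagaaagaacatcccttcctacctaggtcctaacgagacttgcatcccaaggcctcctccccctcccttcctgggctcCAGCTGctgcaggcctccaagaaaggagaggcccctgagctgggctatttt
Tnni1 has 4 such hexamers in this window, Tnnt1, Myl1 and Mylpf have 1 each, and Myl4 has none. The hexamer of Myl1 and of Mylpf is CAGCTG, which begins 224 and 51 bases before the start. Tnni1 also holds a CAGCTG, 68 bases before its start, and Tnnt1 has CAGGTG 158 bases before its start. The promoter of Tnnt1 also contains TATAAA.

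Across the 31 members with a promoter in the RefSeq table, 26 (83.9%) held CANNTG on either strand, against 69.3% of all 27025 symbols in the table. CAGCTG, a special case of CANNTG, was found for 15 (48.4%) against 14.7%. CATTCC, the core bound by TEAD factors, was found for 7 (22.6%) against 14.4%, and TATAAA also for 7 (22.6%) against 14.3%. These motifs were chosen for their known place in muscle promoters, and a match describes letters only. CAGCTG was absent from the window of Myog, whose 2 hexamers are CACATG and CAGTTG.

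The regulators were below 1 FPKM everywhere. Which of them were above 0 differed between the foot and the back, where the libraries were deeper. In the foot library labelled positive all 6 were listed at 0. In the foot library labelled negative, Myf5, the earliest of the MyoD family to be expressed in the embryo, stood at 0.276 FPKM (0.0831 to 0.457) and Pax7 at 0.0306 FPKM (0 to 0.181), and the other 4 were listed at 0. Both back libraries held Myog and Myod1 instead. Myog, which encodes myogenin and lies at chr1:136186581-136189124 (mm9), stood at 0.614 FPKM (0.373 to 0.844) in the back positive library and 0.529 FPKM (0.296 to 0.752) in the back negative library. Its log2 ratio between them was -0.00013 ± 0.33, where ± is the half-width from the authors' bounds. Myod1 stood at 0.141 FPKM (0.0469 to 0.219) and 0.123 FPKM (0.0363 to 0.200) in the same order. The bounds of the back fractions overlap for both genes.

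The remaining regulators were traces. Pax3 was at 0.0101 FPKM in the back positive library and at 0.0368 FPKM in the back negative one, with lower bounds of 0. Myf5 was at 0.0154 and 0.0179 FPKM in those libraries, and Pax7 was at 0.0179 FPKM in the back negative library and listed at 0 in the back positive one. Myf6 was listed at 0 in all 4 libraries. The 6 regulators summed to 0, 0.307, 0.781 and 0.724 FPKM in the order foot positive, foot negative, back positive, back negative. The back level of Myog would correspond to about 2.67 fragments in the foot library labelled positive and 6.14 in the one labelled negative, where Myf5 was seen at about 3.85. The higher back level of Myod1 would correspond to about 0.760 and 1.75 fragments, in the same order. Its listing at 0 in the foot is therefore not read as absence. A level of 1 FPKM was not reached by any regulator in any library.

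**Figure D1:**
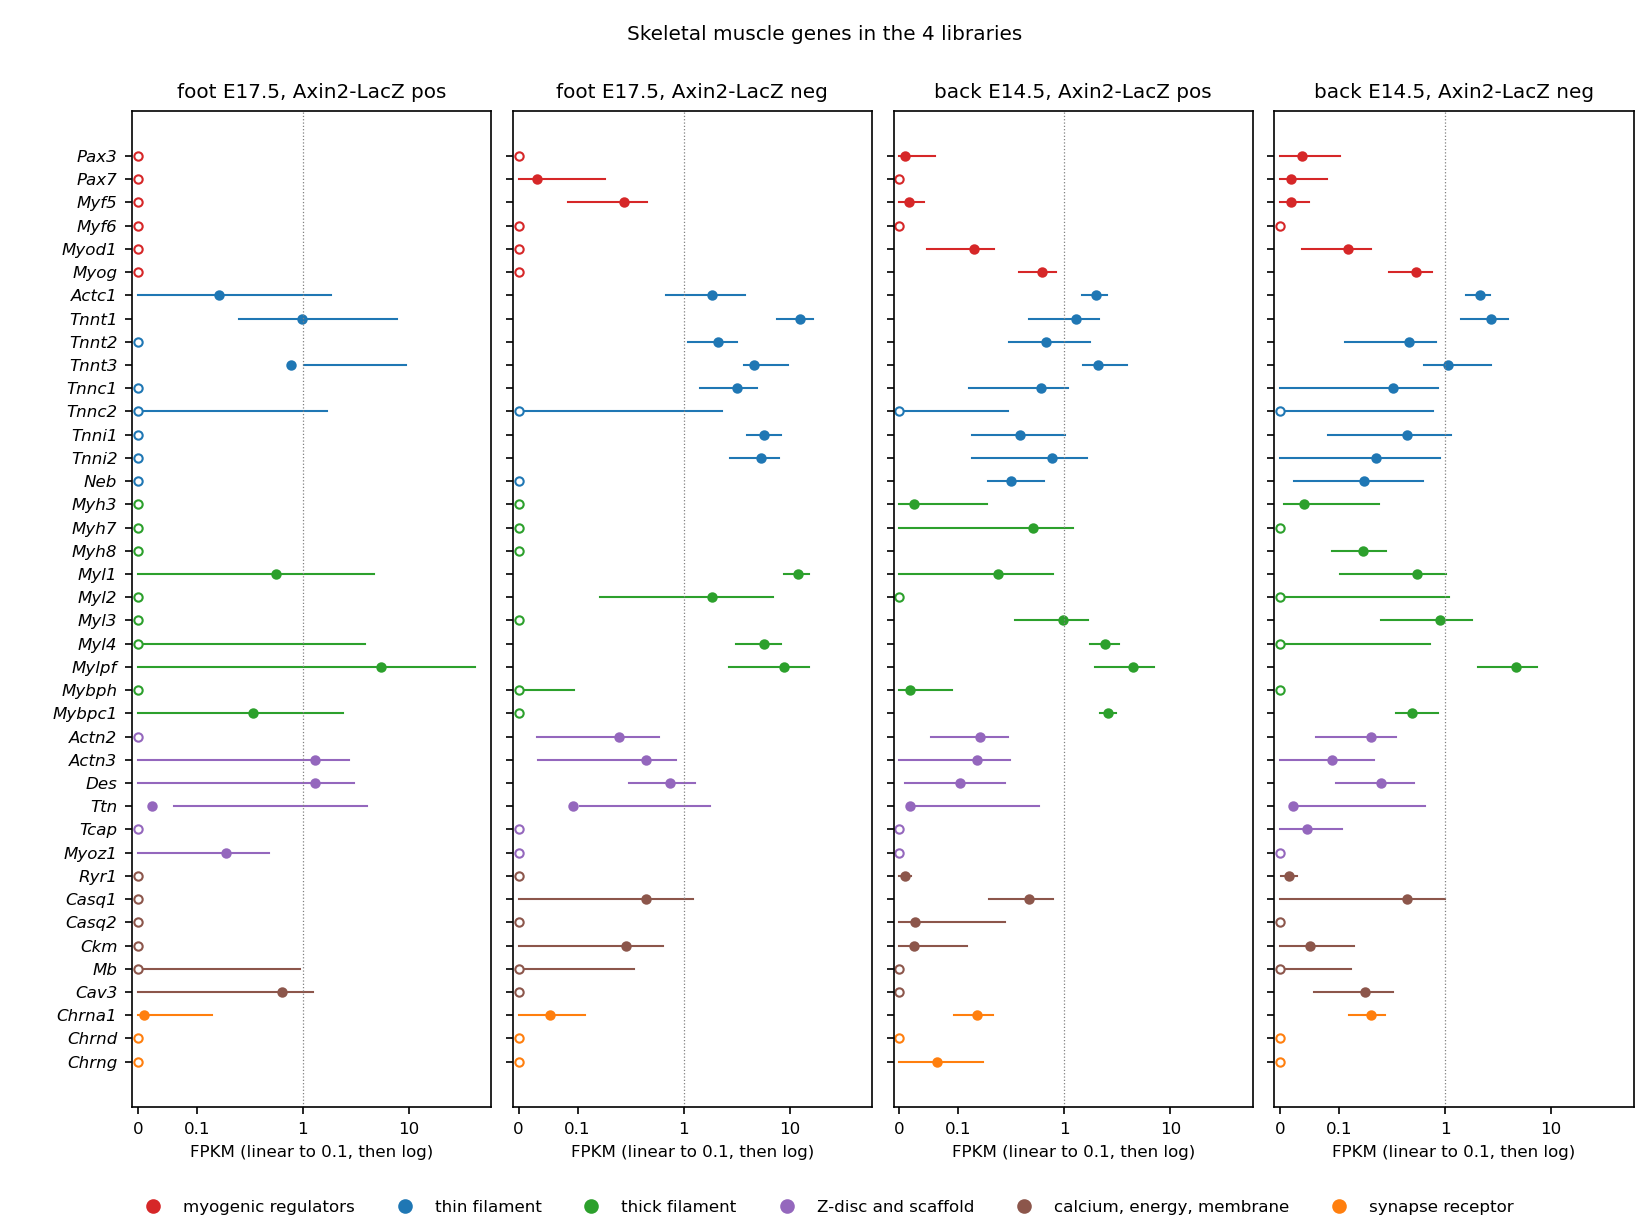
FPKM of each member (points) with the authors' bounds (lines) in the 4 libraries, on an axis that is linear to 0.1 and logarithmic above; open circles are listed at 0, and the dotted line marks 1 FPKM. Myh8 has no point in the back positive library, where it is joined with Myh1. The regulators stay under 1 FPKM in every panel, and thin and thick filament genes of the foot negative library reach 12.6 FPKM.

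The muscle signal was that of contractile genes. Of 40 members, 28 were listed at 0 in the foot library labelled positive and 20 in the one labelled negative. The back libraries had 9 of 39 and 11 of 40 listed at 0. Of all coding units, 43.5%, 39.3%, 31.2% and 29.7% were listed at 0 in the order foot positive, foot negative, back positive, back negative. At least 1 FPKM was reached by 3, 11, 6 and 4 members in the order foot positive, foot negative, back positive, back negative. Summed over members, the level was 11.8, 66.6, 21.3 and 16.5 FPKM, and the highest 5 members made up 83.6%, 67.6%, 63.6% and 69.4% of these sums. In the foot library labelled positive the sum rested on Mylpf, at 5.52 FPKM with bounds of 0 to 42.0. In bulk samples, fewer muscle cells and less RNA per cell cannot be told apart.

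The foot library labelled negative had the highest level for 15 members, the back positive library for 10, the back negative library for 7 and the foot library labelled positive for 4. The other 4, Chrnd, Mb, Myf6 and Tnnc2, were listed at 0 wherever they had an entry. In all, 9 members were above 0 in every library and 26 never reached 1 FPKM. The libraries differed in depth and in the share of all coding units listed at 0. How many members were above 0 is therefore not read as a result about muscle genes.

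**Figure D2:**
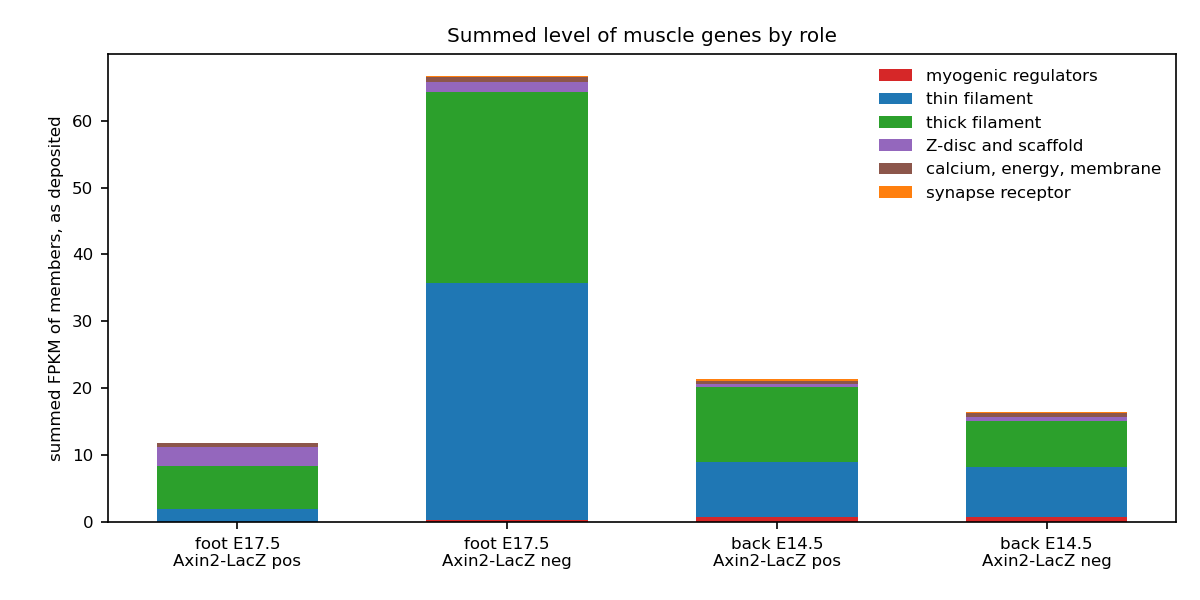
Summed FPKM of the members as deposited in each library, stacked by role. Thin filament (35.5 FPKM) and thick filament genes (28.5 FPKM) make up nearly all of the bar of the foot negative library, and the regulators are a thin strip at most.

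In the foot, 3 troponin genes and 2 myosin light chain genes were below 1 FPKM or listed at 0 in the library labelled positive and above 5 FPKM in the library labelled negative. Tnnt1, slow skeletal troponin T (chr7:4456172-4467984, mm9), had 0.978 FPKM (0.251 to 7.74) in the positive library, as labelled, and 12.6 FPKM (7.65 to 16.8) in the negative one. Myl1, the fast skeletal essential light chain (chr1:66970869-66991978), stood at 0.565 FPKM (0 to 4.70) and 12.1 FPKM (8.80 to 15.3). Both are high in the negative library, and the bounds are apart for Myl1 and overlap narrowly for Tnnt1.

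Tnni1, slow skeletal troponin I (chr1:137679642-137707566), was listed at 0 in the foot library labelled positive and at 5.72 FPKM (4.01 to 8.32) in the other. Its fast counterpart Tnni2 (chr7:149627704-149630315) was listed at 0 and at 5.39 FPKM (2.75 to 8.04). Myl4, the essential light chain of embryonic muscle and of the atria (chr11:104411977-104457067), was listed at 0 with an upper bound of 3.88 and at 5.70 FPKM (3.16 to 8.27). Slow, fast and embryonic forms were thus all among the genes seen in the negative library. Mylpf, the fast regulatory light chain (chr7:134355122-134357812), differed from these: it stood at 5.52 FPKM (0 to 42.0) and 8.92 FPKM (2.69 to 15.2), and the wide bounds overlap.

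Libraries were compared as log2((FPKM + 1)/(FPKM + 1)) after division by factors that bring the median gene to the same level, and a gene was called from a size of 1 upwards where the larger FPKM reached 5. In the foot, 6 members could be called, and 5 of them, Tnnt1, Tnni1, Tnni2, Myl1 and Myl4, were lower in the library labelled positive. By the same rule 21.8% of 5970 units were called, 10.7% lower and 11.2% higher. Among units whose larger FPKM was between 5 and 15, as for these members, 12.3% were lower. The 5 members reached 5 FPKM in the negative library only, so their direction was largely set by that limit, and nothing is read from their count against these shares. The log2 ratio was -2.51 ± 2.67 for Tnnt1, -2.78 ± 2.10 for Myl1 and -0.38 ± 4.67 for Mylpf. For Tnnt1 the half-width is larger than the ratio. Bounds were apart for Tnni1, Tnni2 and Myl1 among the 6, and for 46.9% of all units; a bound of 0 to 0, as for Tnni1 and Tnni2, adds no width of its own.

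Members between 1 and 5 FPKM in the foot library labelled negative are given next. Tnnt3, fast troponin T, stood at 4.62 FPKM (3.76 to 9.59) there and at 0.768 FPKM in the library labelled positive, the latter outside its own bounds of 1.04 to 9.46; with the midpoint of these bounds its log2 ratio turned from -1.43 to 0.35. Tnnt2, the cardiac and embryonic troponin T, was at 2.11 FPKM (1.10 to 3.22) and listed at 0 in the library labelled positive. Tnnc1, troponin C of slow and cardiac muscle, was at 3.18 FPKM (1.44 to 4.97) and listed at 0; its deposited locus is 12.3 times as wide as the annotated gene. Actc1, cardiac alpha-actin, which embryonic skeletal muscle also uses, was at 1.84 FPKM (0.682 to 3.81) against 0.162 FPKM (0 to 1.84).

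With the limit on the larger FPKM at 1 instead of 5, in the foot 10 of 13 members were lower in the positive library, as labelled, and 0 higher, against 10.5% and 10.8% of 9474 units. All 10 reached 1 FPKM in the negative library only, so this count too follows from the limit. Actn3, the fast-fibre alpha-actinin of the Z-disc, and Des, desmin, stood higher in the library labelled positive, at 1.32 FPKM (0 to 2.71) and 1.30 FPKM (0 to 3.07). Their levels in the library labelled negative were 0.445 and 0.740 FPKM. The bounds of both genes overlap between the libraries.

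**Figure D3:**
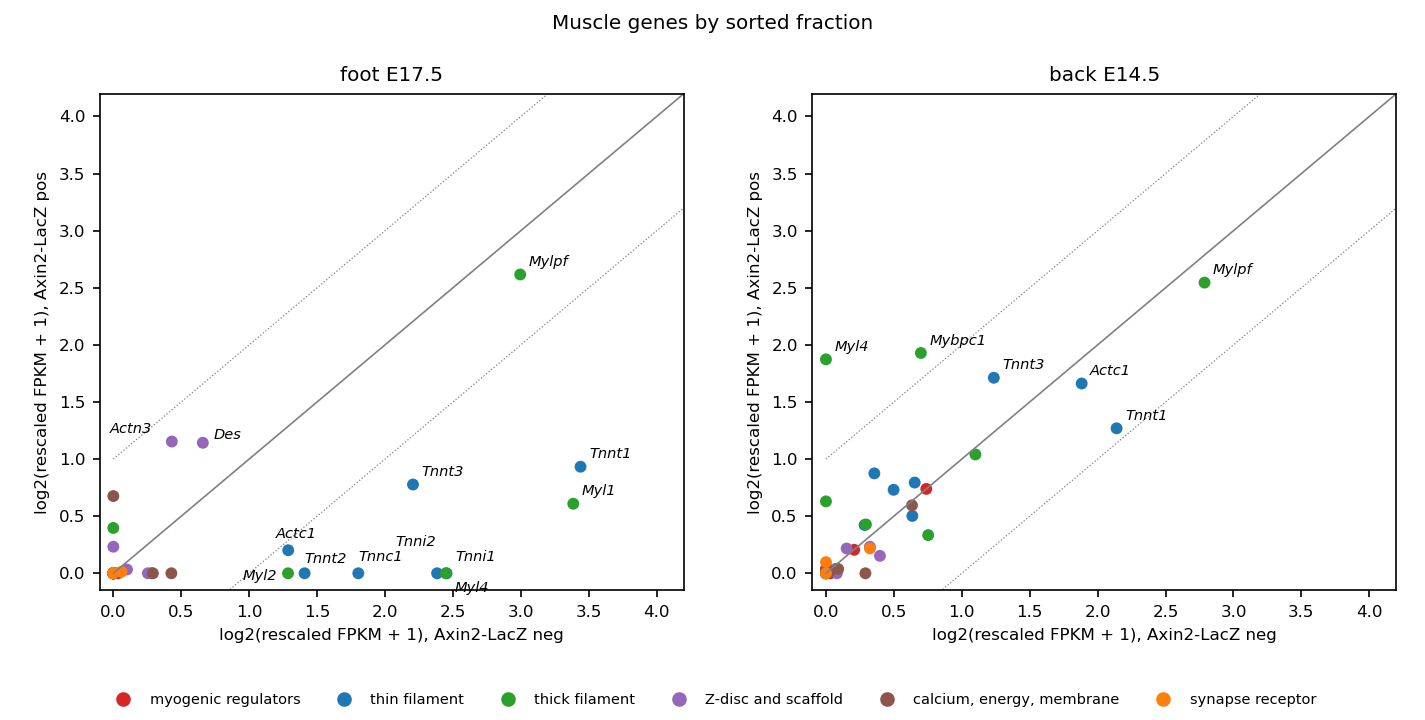
Each member in the labelled positive (vertical) against the labelled negative library (horizontal), as log2 of rescaled FPKM + 1, in foot and back; the solid line marks equal levels and the dotted lines a 2-fold difference, and genes of at least 1 FPKM in either library are named. In the foot, Tnnt1, Myl1, Tnni1, Tnni2 and Myl4 lie far below the lower dotted line. In the back, Myl4 and Mybpc1 lie above the upper one.

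In the back, Mylpf and Actc1 had close levels in both fractions. Mybpc1 and Myl4 were higher in the positive one with bounds apart, as for 54% of 4877 units whose larger FPKM reached 5. No member reached 5 FPKM in either back library, so 0 could be called by the rule above, which called 7.67% of 4877 units. Mylpf was the highest in both, at 4.45 FPKM (1.93 to 6.97) in the positive and 4.66 FPKM (2.04 to 7.30) in the negative library. Actc1 stood at 1.99 FPKM (1.47 to 2.51) and 2.12 FPKM (1.59 to 2.66). The log2 ratios of -0.24 ± 0.97 and -0.22 ± 0.37 include 0.

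Mybpc1, slow myosin-binding protein C (chr10:87981024-88067897), stood at 2.58 FPKM (2.17 to 3.07) in the back positive and 0.493 FPKM (0.347 to 0.865) in the back negative library. Its log2 ratio was 1.23 ± 0.35 and its rescaled fold 4.50. Myl4 stood at 2.45 FPKM (1.76 to 3.28) in the back positive library and was listed at 0 with an upper bound of 0.716 in the back negative one. For both genes the bounds are apart. They were the members called with the limit lowered to 1 FPKM, 2 of 6, where 7.18% of 8735 units were called and 3.72% were higher in the positive library. Both reached 1 FPKM in the positive library only, so their direction was largely set by that limit. The share of all units with bounds apart was not taken at that limit.

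The troponin T genes leaned in opposite ways in the back. Tnnt1 stood at 1.30 FPKM (0.464 to 2.14) in the positive and 2.69 FPKM (1.42 to 3.96) in the negative library, a log2 ratio of -0.87 ± 0.76. Tnnt3 stood at 2.09 FPKM (1.51 to 3.88) and 1.07 FPKM (0.639 to 2.74), a log2 ratio of 0.48 ± 0.99. The bounds overlap for both. Lower members with wide bounds also differed, among them Tnni2, 2.98-fold higher in the positive, and Des, 2.84-fold higher in the negative library, both with overlapping bounds.

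Between the sites, the negative fractions differed in the same genes as the foot fractions, and both comparisons rest on the same foot library. Of 6 members that could be called, Tnnt1, Tnni1, Tnni2, Myl1 and Myl4 were higher in the foot library labelled negative than in the back negative library. By that rule 28.1% of 5739 units were called, and 15.9% were higher in the foot. All 6 reached 5 FPKM in the foot library only, so nothing is read from the count. Tnni1 stood at 5.72 FPKM in the foot and 0.438 FPKM (0.0808 to 1.14) in the back, a log2 ratio of 1.82 ± 0.76. Tnni2 stood at 5.39 and 0.221 FPKM (0 to 0.902), a ratio of 2.03 ± 0.86. Myl1 had the largest ratio of the 4 that were above 0 in both libraries, 2.63 ± 0.61, from 12.1 FPKM against 0.541 FPKM. Tnnt1, at 12.6 against 2.69 FPKM, had 1.30 ± 0.71.

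The bounds of these 5 genes were apart, as they were for 77% of all units in that comparison. Mylpf, at 8.92 and 4.66 FPKM, had a log2 ratio of 0.21 ± 1.12. Some members went the other way: Myl3, the essential light chain of slow muscle and the ventricle, was listed at 0 in the foot library and at 0.904 FPKM (0.247 to 1.79) in the back one, and Mybpc1 was listed at 0 and at 0.493 FPKM. The foot therefore did not have more of every muscle transcript. With the limit at 1 FPKM, 7 of 11 members were higher in the foot and 0 lower, where 13.1% of 9369 units were called in each direction. Of the 11, 7 reached 1 FPKM in the foot library only and 0 in the back library only, so nothing is read from this count either.

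Between the positive fractions 1 member, Mylpf, could be called and was not, at 5.52 FPKM in the foot and 4.45 FPKM in the back; 31% of 5772 units were. With the limit at 1 FPKM, Actc1, Myl4 and Mybpc1 were lower in the foot, 3 of 8, where 15.5% of 9363 units were lower. All 3 reached 1 FPKM in the back library only, so their direction was largely set by that limit. The log2 ratios were -1.46 ± 1.10 for Actc1 and -1.53 ± 1.25 for Mybpc1. Of Myl4 the foot library lists 0 with an upper bound of 3.88, which contains the back level of 2.45 FPKM, so a difference was not detectable at this depth. After rescaling, the summed level of the members was 2.11-fold higher in the back positive than in the foot positive library, and 4.74-fold higher in the foot negative than in the foot positive library. Both folds rest on the foot positive sum of 11.8 FPKM, to which Mylpf gives 5.52 FPKM with bounds of 0 to 42.0. That upper bound is above the whole back positive sum of 21.3 FPKM, which leaves out Myh8, joined there with Myh1. The size of these folds is therefore not settled.

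Within a library, FPKM allows genes of a family to be set against each other. In the foot library labelled negative, slow and fast troponin I were level, with a Tnni1 to Tnni2 ratio of 1.06 ± 0.66. Slow troponin T stood above fast troponin T there, with a Tnnt1 to Tnnt3 ratio of 2.73 ± 1.99, but the bounds of these genes overlap. That ratio was 0.620 ± 0.532 in the back positive and 2.51 ± 2.74 in the back negative library, so the order of these genes was not settled in the back. Tnnt2 was below Tnnt3 in the foot library, with a ratio of 0.458 ± 0.369 and bounds apart.

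The essential light chains changed order between libraries. In the foot library labelled negative Myl4 was at 0.472 ± 0.246 of Myl1, with bounds apart. In the back positive library Myl4, at 2.45 FPKM, stood above Myl1, at 0.240 FPKM (0 to 0.779), again with bounds apart, and Myl3 was at 0.971 FPKM (0.345 to 1.66). In the back negative library Myl4 was listed at 0 and Myl1 was at 0.541 FPKM. Of the regulatory light chains, Mylpf had the higher level in all 4 libraries, with bounds apart in the back. Myl2, the slow and ventricular form, was at 1.84 FPKM (0.162 to 6.96) in the foot library labelled negative and listed at 0 in the other 3.

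The heavy chains did not follow the light chains. Myh3, the embryonic myosin heavy chain, was listed at 0 in both foot libraries and at 0.0251 and 0.0407 FPKM in the back positive and negative libraries. Myh8, the perinatal form, was listed at 0 in the foot and at 0.169 FPKM (0.0882 to 0.276) in the back negative library, and its joined locus with Myh1 was at 0.317 FPKM in the back positive one. Myh7, the slow and ventricular form, was at 0.503 FPKM (0 to 1.22) in the back positive library and listed at 0 elsewhere. The giant proteins were as low: Neb, nebulin of the thin filament, was listed at 0 in the foot and at 0.313 FPKM (0.189 to 0.644) and 0.172 FPKM (0.0228 to 0.613) in the back. Ttn, titin, was below 0.1 FPKM and outside its own bounds in all 4 libraries.

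Level was then set against transcript length. The members were divided at the median length of their longest coding transcript, 1854 nucleotides, a division made after the values were seen. In the foot library labelled negative, 11 of the 20 shorter members reached 1 FPKM and 0 of the 20 longer ones did, and the highest longer one was Des at 0.740 FPKM. Other coding genes went the opposite way there: 36.5% of 5106 shorter and 50.5% of 12680 longer genes reached 1 FPKM. In the back positive library the counts were 5 shorter and 1 longer member, and in the back negative library 4 and 0. The foot library labelled positive went the other way, with 1 shorter member, Mylpf, and 2 longer ones, Actn3 and Des. Tnnt1 (1059 nucleotides), Myl1 (1082) and Mylpf (766) are short, while Myh3 (6031) and Neb (22489) are long. At its length, 1 FPKM of Neb would correspond to about 150.4 fragments in the foot library labelled negative, and 1 FPKM of Myl1 to about 7.24. The part of transcript length in these levels was not tested.

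**Figure D4:**
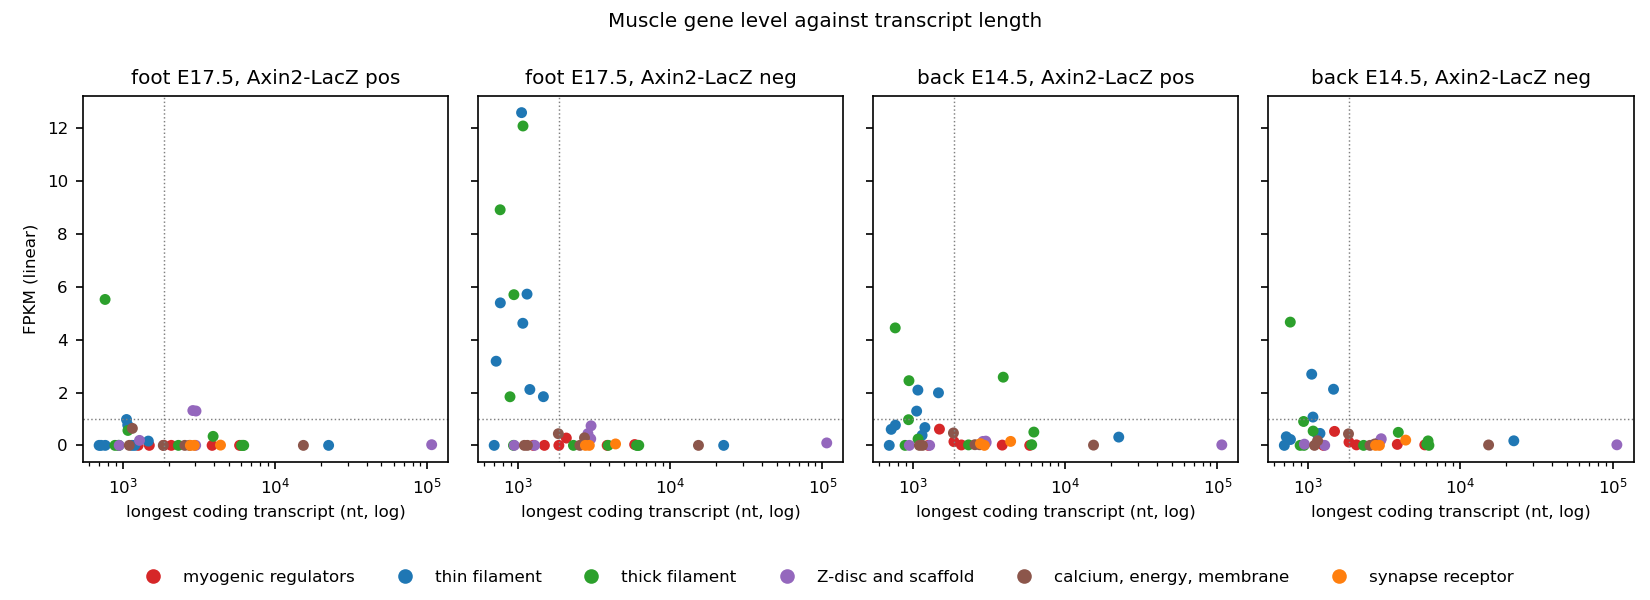
FPKM (linear axis) of each member against the length of its longest coding transcript (log axis) in the 4 libraries; the dotted vertical line is the members' median length of 1854 nucleotides and the dotted horizontal line 1 FPKM. In the foot negative library the members above 1 FPKM all lie left of the vertical line.

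The Z-disc, calcium, energy and synapse genes were low throughout. Actn2, the alpha-actinin of all striated muscle, was listed at 0 in the foot library labelled positive and between 0.160 and 0.247 FPKM in the other 3. Casq1, calsequestrin of fast muscle, was listed at 0 there and between 0.436 and 0.469 FPKM elsewhere. Ckm, muscle creatine kinase, reached at most 0.286 FPKM (0 to 0.644), in the foot library labelled negative. Ryr1, the calcium release channel, was listed at 0 in the foot and reached 0.0156 FPKM in the back. Cav3, muscle caveolin, was at 0.643 FPKM (0 to 1.24) in the foot library labelled positive and at 0.176 FPKM (0.0581 to 0.319) in the back negative one. Mybph, Tcap, Myoz1 and Casq2 were each above 0 in 1 library, at no more than 0.188 FPKM.

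Chrna1, the alpha subunit of the muscle acetylcholine receptor, was the synapse gene with a value above 0 in all 4 libraries. In the foot it was at 0.00980 FPKM (labelled positive) and 0.0538 FPKM (labelled negative), both with lower bounds of 0. These foot levels correspond to about 0.125 and 1.58 fragments. The gene was thus hardly seen there. In the back positive and negative libraries it stood at 0.150 FPKM (0.0926 to 0.212) and 0.199 FPKM (0.123 to 0.269). Chrng, the fetal gamma subunit, was at 0.0642 FPKM (0 to 0.171) in the back positive library and listed at 0 in the other 3. Like Myog and Myod1, Chrna1 was thus clearest in the back, where the summed level of the members was lower than in the foot library labelled negative.

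Related muscle genes outside the list were counted next. By the first rule, 10.7% of all units were lower and 11.2% higher in the foot library labelled positive. Of 15 other myogenic factors, 3 could be called in the foot, and 1, Mef2d, a MADS-box factor that acts with the MyoD family, was higher in the library labelled positive, at 8.26 FPKM (3.12 to 13.3) against 1.94 FPKM (1.26 to 2.88). Lbx1, a marker of migrating limb progenitors, was listed at 0 in every library. Of 32 further sarcomere genes, 4 could be called in the foot and Tmod1, a capping protein of actin filaments that other cells also use, was higher in the library labelled positive, at 9.77 FPKM against 2.80 FPKM with bounds apart. Called lower in that library were 0 of these 3 and 0 of these 4. Of 12 fusion and progenitor genes 5 could be called. Dag1, dystroglycan, which many tissues express, was lower, at 3.0 FPKM against 8.78 FPKM with bounds apart. Heyl, a target of Notch signalling, was higher, at 7.23 FPKM against 1.5 FPKM, with overlapping bounds. Mef2d, Tmod1, Dag1 and Heyl each reached 5 FPKM in 1 library only, so their direction was largely set by that limit. Nothing is read from these counts. Of 27 further excitation, synapse and energy genes 1 could be called and 0 were; Sln, sarcolipin, an inhibitor of the muscle calcium pump, stood at 4.18 FPKM (1.51 to 5.04) in the foot library labelled negative and was listed at 0 in the one labelled positive.

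In the back, the same lists gave 0 calls of 2 for the myogenic factors and 1 of 3 for the sarcomere genes. The latter was Tpm3, a tropomyosin present in many cell types, at 22.5 FPKM in the positive and 47.3 FPKM in the negative library; 3.42% of all units were lower and 4.24% higher by that rule. Of the fusion and progenitor genes 1 of 4 was called: Fgfr4, a receptor of fibroblast growth factors found on muscle progenitors, at 10.4 FPKM (1.99 to 20.5) in the positive and 0.294 FPKM (0.141 to 1.20) in the negative library. Between the positive fractions all 6 of that list that could be called differed, where 31% of all units did: Dmd, dystrophin, and Heyl were higher in the foot and Dag1, Vcam1, Ncam1 and Fgfr4 lower. Only Vcam1 and Ncam1 reached 5 FPKM in both libraries, at 72.0 and 9.10 FPKM in the foot and 128.8 and 18.8 FPKM in the back. The direction of the others was largely set by the limit, and nothing is read from this count. Tmod1 was also higher in the foot between the positive fractions, as were 16.5% of all units. Between the negative fractions Dmd was higher in the foot and Mef2d and Tpm3 were lower, where 15.9% and 12.1% were. Mef2c, another MADS-box factor, was higher in the foot than in the back in both fractions. It stood at 5.98 against 1.59 FPKM in the positive and 9.61 against 1.63 FPKM in the negative libraries. Fgfr4 in the back, Tmod1, Dmd, Mef2d and Mef2c each reached 5 FPKM in only 1 of the libraries compared. Their direction was thus largely set by that limit.

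Several members are also used by heart muscle, so cardiac markers were read in the same libraries. Nkx2-5, Myh6, Myl7 and Tbx20 were listed at 0 in all 4 libraries, and the 7 cardiac markers with an entry summed to at most 1.28 FPKM. The 10 smooth muscle and pericyte markers summed to 39.4, 45.4, 52.5 and 35.6 FPKM in the order foot positive, foot negative, back positive, back negative, and 0 of 4 that could be called differed in the foot, where 21.8% of all units did. Of 6 mast cell markers 3 could be called in the foot, Cpa3, Cma1 and Tpsb2, and all 3 were lower in the library labelled positive, as were 10.7% of all units. They reached 5 FPKM in the negative library only, so their direction was largely set by that limit. The mast cell list summed to 2.17, 264.6, 24.6 and 83.9 FPKM in the same order of libraries, with Mcpt4 and Fcer1a listed at 0 throughout. In the back the same 3 mast cell markers were lower in the positive library, as were 3.42% of all units, while Myl4 and Mybpc1 were higher there. Leukocyte markers summed to 0.588 FPKM and 2.71 FPKM in the foot libraries, in that order, and were highest in the back negative library; in the foot Tyrobp was listed at 0 in the library labelled positive and at 1.92 FPKM (0.614 to 3.22) in the other. Keratinocyte markers with their own entries summed to 7.56, 0, 29.7 and 10.7 FPKM, led by Krt10, which in the foot stood at 7.38 FPKM in the library labelled positive and was listed at 0 in the other. Endothelial markers summed to 0.979 and 0.461 FPKM in the foot and 6.32 and 4.42 FPKM in the back, and Schwann cell markers to at most 0.770 FPKM. Tendon markers summed to 576.7, 45.5, 10.9 and 5.38 FPKM, nearly all of the first from Thbs4, whose value lies outside its own bounds. The part of other cell types in the muscle results was not tested.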

How the data were processed

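Messenger RNA of sorted dermal cells was measured in 4 libraries, 1 per group. The submitters' processing notes name TopHat, Cufflinks and mm9; the sources used here give no versions or settings. The authors deposited FPKM for each gene or assembled locus, together with its 2 bounds and its status; at what confidence level the bounds were set, the files do not say. From these values, entries of 1 symbol were summed and loci joining several genes kept as 1 unit (975 of 33127), and 22 symbols altered to dates in 1 file were restored. Start positions in the files count from 0 (1057 of 1070 snRNA loci had the annotated length under that reading) and are printed from 1.

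FPKM is printed as deposited. For comparisons it was divided by median-ratio factors of 1.08, 1.28, 0.919 and 0.791 (foot positive, foot negative, back positive, back negative), from 3423 units of at least 5 FPKM in every library, and a pseudocount of 1 was added, which understates changes of low genes. Half-widths combine both genes' or libraries' bounds in quadrature. Depth was implied from bound width and transcript length and is approximate. Of 159 member values, 5 lie outside their own bounds.

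Regulators were named in every library; structural members were named where they reached 5 FPKM in any library, the highest of each role first, and the rest by count, range or value. Members between 1 and 5 FPKM and the promoters printed were chosen after their values were seen. Members, lists and rules were chosen with earlier results of these data known. Scaling, pseudocount, limits on low values, entries listed at 0, values outside their bounds and summing of entries were varied. The calculation was tested on simulated data without counting error, in which only well-expressed genes were changed. That test does not bear on calls at the low levels of these members. Python 3.11.15, numpy 2.4.6, pandas 2.3.3 and matplotlib 3.10.9 were used.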

Additional observations from a re-analysis of the deposited data

Results flagged for a closer look

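Myl4, the embryonic and atrial essential light chain, had differences of opposite sign between the fractions of the 2 skins, and that of the foot is not settled. As deposited, its FPKM in the positive minus the negative library was -5.70 in the foot, as labelled, and 2.45 in the back. In each skin the lower library lists 0, with an upper bound of 3.88 FPKM in the foot and 0.716 FPKM in the back. The foot bounds overlap, since the lower bound of the negative library is 3.16 FPKM, and the foot log2 ratio of -2.45 ± 2.65 includes 0. In the back the bounds are apart, as they were for 54% of 4877 units whose larger FPKM reached 5. Myl4 itself did not reach 5 FPKM there. Each group holds 1 library, and the difference between the skins was not tested.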

How the results depend on the processing

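With a pseudocount of 5, the members called in the foot fell from 5 to 2, and those between the negative fractions from 5 to 1. With the limit on the larger FPKM at 1, the counts were 10 in the foot, 2 in the back and 3 between the positive fractions; with no limit they were 10, 2 and 4, and 8 between the negative fractions, of which 7 were higher in the foot and 1 lower. Without members listed at 0, 2 remained to be called in the foot, of 3 that could be. The median log2 ratio over members of at least 1 FPKM, whose direction that limit largely sets, was -1.43 in the foot; it was -3.93 with a pseudocount of 0.1, -0.58 with 5 and -0.38 with no limit. Between the negative fractions it went from 1.30 to 2.34 with a pseudocount of 0.1, to 0.47 with 5, to 0.0019 with no limit and to 1.66 with values as deposited. Between the positive fractions it was -0.64, and 0.07 with the midpoint of the bounds for values outside them; in the back it was 0.13, and -0.22 without members listed at 0. Ratios of single members changed by more than their half-width in 58 of 518 recalculations, all of them with another pseudocount. No called member changed sign. Each called member reached 5 FPKM in 1 of the compared libraries only, so most settings could hardly reverse its sign. Nothing is read from this. Tnnt3 in the foot, not called, changed sign with the midpoint. Scaling as deposited, the midpoint and the highest entry of a symbol left the counts at the limit of 5 FPKM as they were. The share of all units called was also taken for units of 5 to 15 FPKM, a choice made after seeing the data. No paired analysis was possible because each group holds 1 library, and for the same reason no library could be left out. The foot library labelled positive, at about 2.90 M implied fragments, limits the comparisons it enters.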
